A study of Mus musculus with 2 samples.

Results

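The 9 genes described here encode the main bile acid and drug transporters of the hepatocyte, together with a bile acid-CoA ligase of the fatty acid transport protein family. They are Slc10a1, Slco1b2, Slco1a4, Abcb11, Abcb4, Abcc2, Abcg5, Abcg8 and Slc27a5, chosen by name from general knowledge of hepatic bile formation and matched by their Ensembl identifiers to GENCODE M21 symbols. All 9 had an entry in both libraries, among 36458 genes with 1 entry per symbol. The members were named for their function and not for their measured values, but earlier results of the same libraries were known when they were listed.

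RNA-seq was carried out on liver cells of adult male C57/Bl6 mice that had received CCl4, a hepatotoxin, for 5 weeks to induce fibrosis. The controls were Foxf1fl/fl mice, which carry floxed Foxf1 alleles and no Cre, and the other group was αSMACreER;Foxf1 fl/fl, in which tamoxifen activates the Cre and which is called αSMACreER;Foxf1-/- once deleted. The groups are named control and knockout below. Foxf1 encodes a forkhead transcription factor of liver mesenchyme, and Cre was driven by the αSMA (smooth muscle actin) promoter, so that deletion was directed to αSMA-positive myofibroblasts and not to hepatocytes. Tamoxifen belongs to the study's protocol, and its use in the control animals is not given in the labels. Liver suspensions were plated for 2 hours, the adherent cells were kept and labelled as stromal, and RNA was pooled within each genotype into 1 library, with a number of animals that is not given in the sources used here. Differences between the genotypes therefore have no replicate check, and no p-value is given. Foxf1 itself was not analysed here, so the targeted gene does not check the labels.

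Hepatocytes take up bile acids from sinusoidal blood with the Na+-dependent carrier NTCP (Slc10a1) and with Na+-independent organic anion transporting polypeptides (Slco genes). Bile acids are conjugated after activation to CoA esters (Slc27a5), and are secreted into the bile canaliculus with ATP-driven pumps. At the canalicular membrane, ABCB11 (BSEP) exports bile acids, ABCB4 (MDR2) moves phosphatidylcholine into bile, ABCC2 (MRP2) exports conjugated bilirubin and drug conjugates, and the ABCG5-ABCG8 pair exports cholesterol and plant sterols. These are mostly hepatocyte functions, and the sample is an adherent preparation labelled stromal, so the usual cell type of these genes differs from that label.

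The upstream sequences of 3 members and of the Abcg5-Abcg8 pair are printed because they cover the main uptake carriers, the bile salt pump with the lowest percent of its control level, and a pair of genes read from 1 shared stretch. They come from RefSeq on GRCm38.p6 and run 5′ to 3′ on the coding strand, with the last base just before the annotated start. Capitals mark matches to short motifs searched on both strands. For Abcb11 (chr2:69342617-69342866, minus strand) the capitals are TGACCT, the reverse complement of the nuclear receptor hexamer AGGTCA, from base 56 to base 51 before the start. For Slc10a1 (chr12:80968080-80968329, minus strand) they are AGGTCA, from 87 to 82. For Slco1b2 (chr6:141629268-141629517, plus strand) they are TATAAA at 234 to 229 and 227 to 222, TGACCT at 81 to 76 and GTTAAT, an HNF1 hexamer, at 66 to 61.
Abcb11: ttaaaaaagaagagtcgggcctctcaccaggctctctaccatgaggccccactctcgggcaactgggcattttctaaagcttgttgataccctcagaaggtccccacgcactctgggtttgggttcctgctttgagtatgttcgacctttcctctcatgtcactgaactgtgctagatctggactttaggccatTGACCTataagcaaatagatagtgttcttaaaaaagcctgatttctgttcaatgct
Slc10a1: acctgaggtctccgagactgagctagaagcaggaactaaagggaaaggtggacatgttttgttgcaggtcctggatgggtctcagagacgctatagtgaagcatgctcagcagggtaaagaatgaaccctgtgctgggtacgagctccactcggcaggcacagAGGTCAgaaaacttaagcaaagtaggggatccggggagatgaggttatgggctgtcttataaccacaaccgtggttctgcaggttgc
Slco1b2: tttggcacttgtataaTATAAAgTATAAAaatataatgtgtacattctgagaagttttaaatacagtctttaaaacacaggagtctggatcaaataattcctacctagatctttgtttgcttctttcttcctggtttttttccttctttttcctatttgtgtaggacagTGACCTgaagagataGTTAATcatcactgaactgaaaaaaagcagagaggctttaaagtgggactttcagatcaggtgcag

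Abcg5 and Abcg8 start on opposite strands of chromosome 17 with 109 bases between their RefSeq starts (chr17:84683012-84683120, printed on the plus strand, toward Abcg8). The capitals are TTATCT, the reverse complement of the GATA site AGATAA, beginning 93 and 63 bases before the Abcg8 start, and the forkhead core TGTTTA beginning 33 bases before it, which overlaps a TATA match on the other strand.
Abcg5-Abcg8: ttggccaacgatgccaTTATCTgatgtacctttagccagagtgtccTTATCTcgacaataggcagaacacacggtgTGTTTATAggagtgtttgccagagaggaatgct

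Of the 9 members, 8 had a RefSeq window, with 10 windows in all because Slc10a1 and Abcg8 each have an alternative start. Slc27a5 is named only. The hexamer AGGTCA or its reverse complement lay in the 250 bases upstream of Abcb11, Abcc2, Slc10a1 and Slco1b2, and in 14.0% of all 32851 windows of this length. The forkhead core TGTTTA lay upstream of Slco1a4 and in the shared Abcg5-Abcg8 stretch, and in 12.03% of all windows. The GATA site lay in the Abcg5-Abcg8 stretch and in 9.99% of all windows, and GTTAAT lay in the Slco1b2 window and in 6.43% of all. The antioxidant response element TGACNNNGC was found for Abcc2, at 98 to 90 before its start, and in 10.2% of all windows. TATAAA was found for Slco1b2, the alternative Slc10a1 window and the Abcg5-Abcg8 stretch, and in 12.4% of all windows. The HNF4 site CAAAGTCCA, the C/EBP palindrome TTGCGCAA and the FXR inverted repeat were in no member window, and in 0.384%, 0.164% and 0.00609% of all windows. These matches describe letters only, and no binding was measured.

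Levels are FPKM (fragments per kilobase of transcript, scaled to mapped fragments) as deposited, which is per length and so can be compared between genes. Fold changes are knockout relative to control after scaling by the median ratio, on log2(FPKM + 0.1), and a gene is said to have fallen or risen when it differed by at least 1.5-fold at a mean FPKM of at least 1. At these settings 13.2% of the 12692 genes past the filter were at least 1.5-fold lower in knockout cells and 12.8% at least 1.5-fold higher, with a median log2 fold change of 0.0050. The libraries held about 9820000 (control) and 11290000 (knockout) mapped reads by an estimate from the spacing of low values. The read numbers and 95% counting intervals below are approximate. They cover counting error only, because RNA of the animals was pooled.

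Of the 9 members, 6 passed the filter and all 6 fell (Slc10a1, Slco1b2, Abcb11, Abcb4, Abcc2 and Slc27a5), and none rose. With a threshold of 2-fold, 2 of the 6 fell against 6.21% of genes. Without the filter 8 of 9 members were at least 1.5-fold lower against 8.85% of 36458 genes, and none of the 9 was higher against 10.5%. These unfiltered shares count many genes at 0. Of 38320 entries, 18112 in control and 18854 in knockout cells were above 0, as were all 9 members. The directions of the 6 were the same under each scaling tried except that to the hepatocyte markers themselves, where Slc10a1, Slco1b2, Abcb4 and Abcc2 turned above 0. Over all 9 members the median log2 fold change was -0.95, and the summed FPKM went from 60.5 in control to 26.8 in knockout cells. Slco1a4, Abcg5 and Abcg8 were below the filter. In bulk RNA, fewer hepatocytes in the preparation and less RNA per hepatocyte cannot be told apart.

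**Figure D1:**
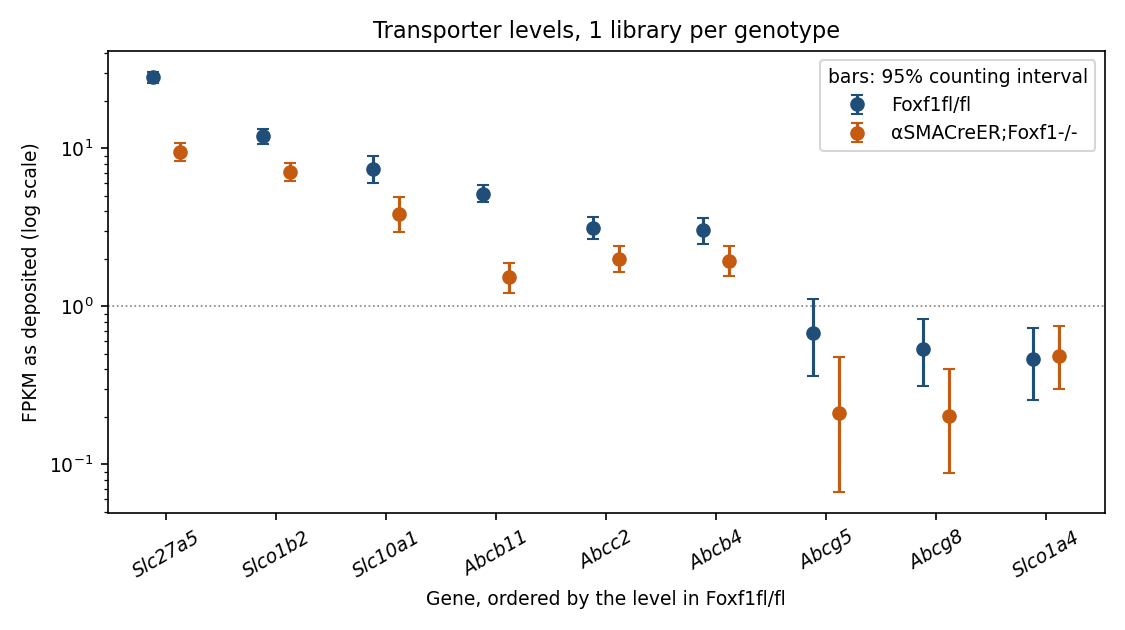
Level of each transporter gene (FPKM as deposited, log axis) in the Foxf1fl/fl library and the αSMACreER;Foxf1-/- library, ordered by the Foxf1fl/fl level; bars are approximate 95% counting intervals and the dotted line is an FPKM of 1. The bars of the 2 libraries do not overlap for the 6 genes with the highest levels, while Abcg5, Abcg8 and Slco1a4 lie below 1 in both.

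For sinusoidal uptake, Slc10a1 (ENSMUSG00000021135, chr12:80953185-80968079 of GRCm38, minus strand, 5 exons) stood at 7.41 FPKM in the control and 3.87 FPKM in the knockout library, from about 107 and 64 reads. The level in knockout cells was 51.2% of the control, or -0.95 in log2 fold change, with a fold interval of 0.369 to 0.703. Slco1b2 (ENSMUSG00000030236, chr6:141629518-141686646, plus strand, 16 exons) encodes OATP1B2, the murine counterpart of the human carriers that take up bile acids, bilirubin and statins. It was at an FPKM of 11.9 and 7.10, or 58.5% of the control, with an interval of 0.495 to 0.688 from about 364 and 249 reads. With libraries scaled to an equal FPKM sum its log2 fold change was -0.57, just inside 1.5-fold. The ratio of Slc10a1 to Slco1b2 was 0.622 in control and 0.544 in knockout cells, and the interval of its change, 0.606 to 1.26, spans 1.

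Slco1a4 (ENSMUSG00000030237, chr6:141805440-141856199, minus strand, 17 exons) encodes OATP1A4, a carrier of bile acids and cardiac glycosides that is also found in brain endothelium, and it was the only member without a lower level. It stood at 0.462 and 0.489 FPKM, from about 16 and 20 reads. The fold interval of 0.526 to 2.20 spans both a fall and a rise, so a difference was not detectable at this depth. Slco1a4 has close relatives beside it on chromosome 6, among them Slco1a1, which was listed at 0 in both libraries, and reads may be split between such copies.

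Among canalicular exporters, Abcb11 (ENSMUSG00000027048, chr2:69238282-69342616, minus strand, 29 exons), the bile salt export pump, stood at 5.18 FPKM in the control and 1.53 FPKM in the knockout library, from about 246 and 83 reads. It was 3.45-fold lower in knockout cells, or -1.72 in log2 fold change, with a fold interval of 0.222 to 0.371. Abcb4 (ENSMUSG00000042476, chr5:8893721-8959225, plus strand, 28 exons), the phosphatidylcholine floppase, had 3.03 and 1.93, or 62.6% of the control, with an interval of 0.471 to 0.843. Abcb11 thus fell further than its relative Abcb4, beyond counting error.

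Abcc2 (ENSMUSG00000025194, chr19:43782192-43837951, plus strand, 32 exons), the exporter of conjugated bilirubin and glutathione conjugates, was at 3.14 and 2.00 FPKM, which was also 62.6% of the control, with an interval of 0.489 to 0.805. Abcb4 and Abcc2 were close to the 1.5-fold threshold, and neither fell by 1.5-fold when the libraries were scaled to an equal FPKM sum or when a pseudocount of 1 was used. The ratio of Abcb4 to Abcb11 was 0.585 in control and 1.26 in knockout cells, a change of 2.16 (interval 1.48 to 3.24), and that of Abcc2 to Abcb11 changed by 2.16 as well (1.52 to 3.13). The ratio of Abcc2 to Abcb4 was 1.04 in both, and the interval of its change was 0.676 to 1.47.

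The sterol exporter genes Abcg5 (ENSMUSG00000040505, chr17:84658234-84683011, minus strand, 13 exons) and Abcg8 (ENSMUSG00000024254, chr17:84676302-84700333, plus strand, 13 exons) encode partners that form 1 transporter. Abcg5 stood at 0.680 FPKM in the control and 0.211 FPKM in the knockout library, from about 14 and 5 reads, with a fold interval of 0.0860 to 0.896. Abcg8 had 0.540 and 0.201, from about 18 and 8 reads, with an interval of 0.143 to 0.917. Both were lower in knockout cells but below the filter, and their mutual ratio changed by 1.20 with an interval of 0.281 to 5.95. Their gene models overlap on opposite strands over 6710 bases (chr17:84676302-84683011), and whether the authors' quantification used strand is not given in the sources used here, so reads in the overlap cannot be told apart.

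Slc27a5 (ENSMUSG00000030382, chr7:12988346-12998192, minus strand, 10 exons) encodes FATP5, the bile acid-CoA ligase that returns bile acids to the conjugated pool, and it is a membrane enzyme more than a carrier of bile acids. It had the highest level of the 9 members in both libraries, at 28.2 and 9.49 FPKM, from about 578 and 224 reads. The level in knockout cells was 33.1% of the control, or -1.58 in log2 fold change, with a fold interval of 0.282 to 0.387. It fell further than the uptake carriers: the ratio of Slco1b2 to Slc27a5 changed by 1.77 (1.40 to 2.22) and that of Slc10a1 to Slc27a5 by 1.55 (1.07 to 2.21). Against Abcb11 its ratio was 5.43 and 6.21, a change of 1.14 whose interval of 0.850 to 1.56 spans 1. That interval is without a correction for transcript length. With the length trend removed the log2 fold changes lay further apart, at -1.48 for Slc27a5 and -1.95 for Abcb11.

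In control cells the order of levels was Slc27a5, Slco1b2, Slc10a1, Abcb11, Abcc2, Abcb4, Abcg5, Abcg8 and Slco1a4. The counting intervals of the levels overlapped between the neighbours Abcc2 and Abcb4, and between those among the last 3, and were separate for the other neighbours. In knockout cells Abcb11 lay sixth, behind Abcc2 and Abcb4, with intervals that overlapped along these 3, and the first 3 places were as in the control. Levels spanned 60.9-fold in control cells and 47.2-fold in knockout cells.

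To place these values beside the hepatocyte RNA in the preparation, 25 hepatocyte markers were read, of which 24 had a matched entry. All 24 fell, which under the scaling to these markers does not hold by construction, and none was at 0. Their levels in knockout cells were 26.5% to 60.0% of the control, with a median of 35.4% and a median log2 fold change of -1.49, and their summed FPKM was 6058 and 2156. Alb, which encodes albumin, had 2292 and 912, Apoa2, an apolipoprotein of HDL, had 782 and 220.3, and Hpx, the haem-binding hemopexin, had 485 and 154. The 6 transporters that passed the filter fell too, though Slc10a1, Slco1b2, Abcb4 and Abcc2 fell less than the median marker at this setting. The part of the hepatocyte RNA in their differences was not tested.

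Relative to the median marker fold, Slc10a1 was 1.45 times as high (interval 1.04 to 1.99), Slco1b2 1.65 (1.40 to 1.95), Abcb4 1.77 (1.33 to 2.38), Abcc2 1.77 (1.38 to 2.28) and Slco1a4 2.93 (1.49 to 6.23). At this setting these 5 members kept a higher share of their control level than the median marker did, beyond their own counting error, and for Abcc2 this did not hold once transcript length was taken into account. Abcb11 at 0.819 (0.627 to 1.05), Slc27a5 at 0.936 (0.798 to 1.09), Abcg5 at 0.860 (0.243 to 2.53) and Abcg8 at 1.03 (0.404 to 2.59) had intervals that span 1. Of the 24 markers, 24 had a lower fold than Abcb4, 24 than Abcc2, 23 than Slco1b2 and 22 than Slc10a1, but 3 than Abcb11 and 9 than Slc27a5. The members' longest transcripts had a median of 3667 bases and those of the markers 1743. With the trend of fold change on transcript length removed, the log2 distance from the marker median went from 0.84 to 0.31 for Abcc2, from 0.84 to 0.47 for Abcb4 and from -0.23 to -0.66 for Abcb11, and for Slc10a1 and Slco1b2 it was 0.60 and 0.51. The interval of Abcc2 then spanned 0 (-0.07 to 0.65) and that of Abcb11 lay below 0 (-1.10 to -0.36). Before this step the interval of Abcc2 lay above the marker median and that of Abcb11 spanned it. The intervals of the other 7 members kept their place relative to the median.

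**Figure D2:**
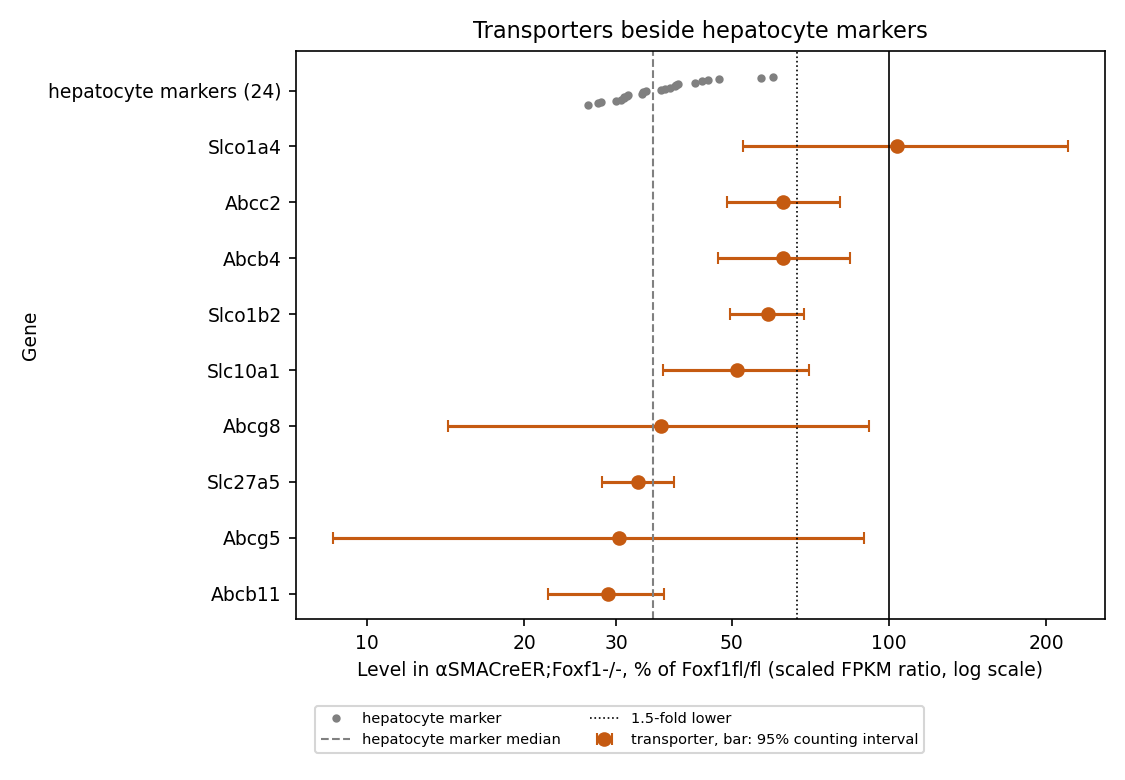
Level in αSMACreER;Foxf1-/- cells as a percent of Foxf1fl/fl (scaled FPKM ratio, log axis) for each transporter with its 95% counting interval, and for 24 hepatocyte markers (grey points), with their median dashed and the 1.5-fold line dotted. Abcb11 and Slc27a5 lie near the marker median of 35.4%, while Slco1b2, Abcb4 and Abcc2 lie between 58.5% and 62.6%, and all but Slco1a4 are below 100% under this scaling.

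Counts for the lists below hold for the median-ratio scaling, and equal FPKM sums and the hepatocyte scaling moved the median log2 fold change of all genes to 0.20 and 1.49. Of 14 genes of bile acid synthesis and conjugation, 13 passed the filter, 10 fell and none rose, with a median log2 fold change of -0.85, which turned to 0.57 under the hepatocyte scaling. Akr1c6, a hydroxysteroid dehydrogenase, was at 46.4 and 13.1 FPKM, and Cyp8b1, the sterol hydroxylase that sets the cholic acid share, had 2.72 and 0.669. Cyp2c70, which makes the muricholic acids of mice, had 16.3 and 6.46, and Baat, which conjugates bile acids, had 5.00 and 1.89. Baat acts directly after Slc27a5, since it uses the CoA esters that Slc27a5 makes. Acox2, a peroxisomal oxidase of the side chain, had 4.42 and 1.74, and Cyp27a1, the first enzyme of the acidic pathway, had 25.8 and 13.8. Scp2, Amacr, Akr1d1 and Cyp39a1 also fell, with log2 fold changes of -0.70, -0.75, -0.85 and -0.84. Hsd3b7, Cyp7b1 and Hsd17b4 did not pass the threshold, with -0.41, -0.44 and -0.16. Cyp7a1, the rate-limiting enzyme of the classical pathway, was below the filter with 0.667 and 0.323.

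Other transporters of the same membranes, many of which are also expressed outside hepatocytes, were mostly within 1.5-fold. In the list of other organic anion and cation uptake genes, 10 of 12 passed the filter and none rose, with a median log2 fold change of 0.15. The highest of the list were the nucleoside carrier Slc29a1 with 118 and 132 FPKM, the aromatic amino acid carrier Slc16a10 with 32.3 and 32.1, and the prostaglandin carrier Slco2a1 with 21.4 and 26.9.

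Of 7 basolateral efflux genes, 5 passed the filter, 1 fell and none rose, with a median log2 fold change of 0.15. Abcc5 was at 46.8 and 56.2 FPKM, Abcc3 (MRP3, which returns conjugates to the blood) had 37.5 and 30.3, Abcc1 had 16.8 and 19.0, and Abcc4 had 6.68 and 7.76. The 1 that fell was Abcc6, an ATP-release transporter of liver, with 1.45 and 0.867. The bile acid exporter OSTα-OSTβ was near the limit of the data, with Slc51a listed at 0 in both libraries and Slc51b at 0.371 and listed at 0. Of 7 other canalicular genes, 4 passed the filter and none fell or rose. They were Tmem30a, a subunit of flippases (19.4 and 27.3), Abcg2 (15.3 and 10.98), Abcb1b (6.27 and 7.53) and Abcb1a (3.64 and 4.29), the last 3 being drug efflux pumps. Slc47a1 lay just below the filter and was lower in knockout cells, with 1.55 and 0.390 (log2 fold change -1.78, fold interval 0.114 to 0.460). Atp7b (0.163 and 0.0538) and Atp8b1 (0.462 and 0.433) were also below the filter. Without the filter the median log2 fold change of this list was -0.098.

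Of 8 genes of sterol transport outside the canaliculus, 7 passed the filter and none fell or rose, with a median log2 fold change of 0.16. Npc2 was at 344 and 302 FPKM, the HDL receptor Scarb1 had 71.4 and 64.1, and Npc1 had 27.4 and 40.5. Of 9 other fatty acid transport and acyl-CoA synthetase genes, 8 passed the filter and 1 fell, Slc27a2, another fatty acid transport protein of liver, with 16.8 and 7.04. The synthetases Acsl5, Acsl1 and Acsl4, with the highest levels of the list, had 71.0 and 58.4, 25.5 and 31.1, and 19.95 and 30.2. None of the 3 passed the threshold.

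**Figure D3:**
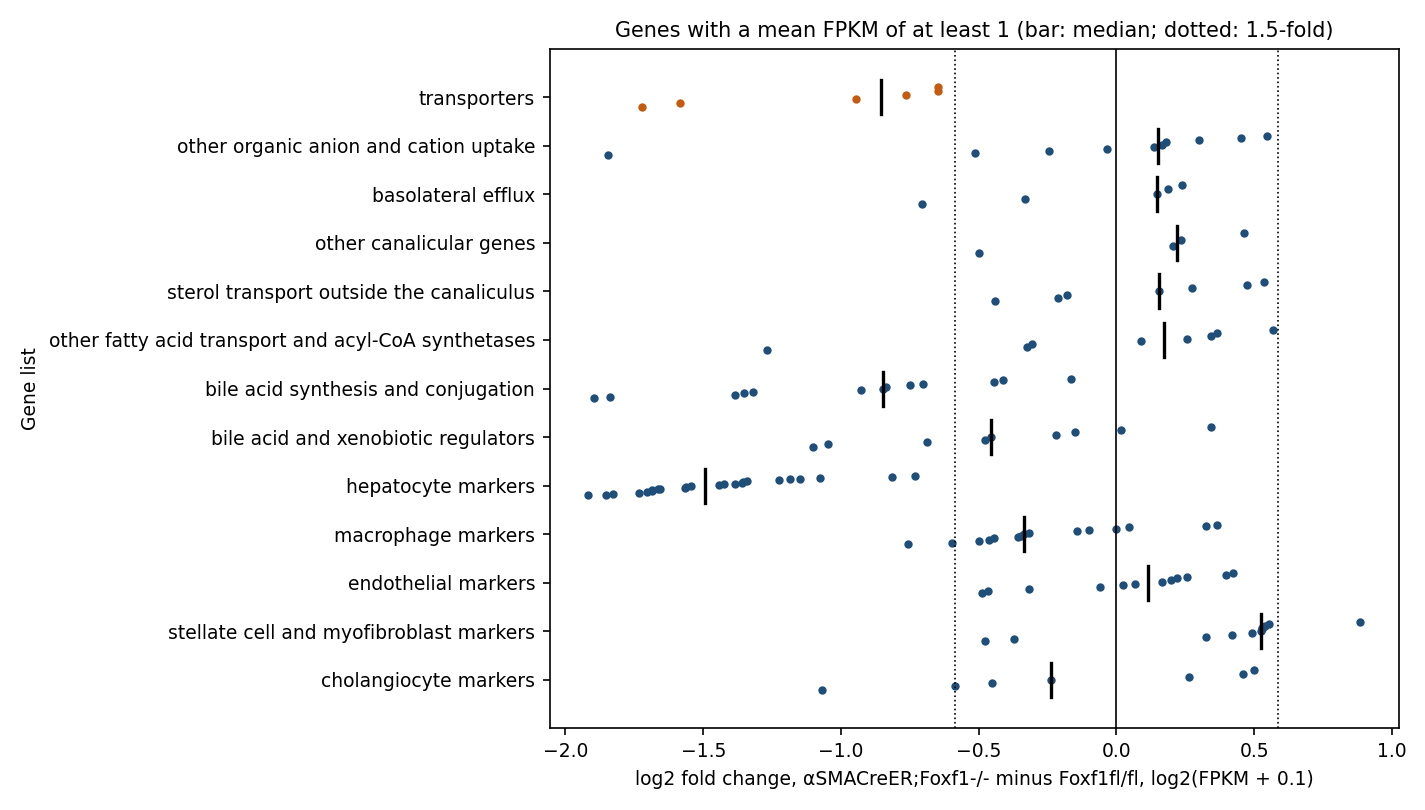
Log2 fold change of αSMACreER;Foxf1-/- minus Foxf1fl/fl, on log2(FPKM + 0.1), for each gene with a mean FPKM of at least 1 in each list (points), with the list median (bar) and the 1.5-fold lines dotted. The 6 transporters, the bile acid synthesis genes and the hepatocyte markers have medians of -0.86, -0.85 and -1.49, while the other transporter lists have medians from 0.15 to 0.22; under the hepatocyte scaling the first 2 medians are above 0.

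Of 14 regulators of bile acid and drug genes, 9 passed the filter, 3 fell and none rose, with a median log2 fold change of -0.45. Hnf4a, which encodes a hepatocyte nuclear receptor that drives many liver genes, was at 5.99 and 2.79 FPKM. Nr1h4, the bile acid receptor FXR that activates Abcb11, had 3.67 and 1.76, and Nr1i3, the xenobiotic receptor CAR, had 1.64 and 0.996. Their log2 fold changes of -1.10, -1.05 and -0.69 lay between those of Abcb4 and Abcb11. Cebpa had 35.8 and 26.6, Nr0b2 (SHP, a repressor induced by FXR) had 1.58 and 1.13, and Nr5a2 had 1.47 and 1.92, none of them past the threshold. The oxysterol receptors Nr1h3 and Nr1h2 had 90.2 and 78.9, and 86.2 and 88.9, and the shared partner Rxra had 18.3 and 16.8.

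Markers of the other cell types had medians nearer 0 than those of hepatocytes. Of 15 macrophage markers 2 fell, with a median log2 fold change of -0.34, and Lyz2, C1qb and C1qa had FPKM values of 3682 and 3395, 1632 and 1307, and 1546 and 1142. Of 12 endothelial markers none fell or rose, with a median of 0.12, and Stab1, Clec4g and Eng had 417 and 303, 254 and 187, and 184 and 196. Of 15 stellate cell and myofibroblast markers 11 passed the filter, 1 rose (Des, 1.70 and 3.29) and none fell, with a median of 0.52, and Dcn, Col3a1 and Col1a2 had 127 and 186, 115 and 164, and 102 and 151. The contractile genes of that list were lower in knockout cells but within 1.5-fold: Acta2, whose promoter drives the Cre, had 7.77 and 5.65 (log2 fold change -0.48, fold interval 0.542 to 0.936), and Tagln had 5.51 and 4.31 (-0.37, 0.549 to 1.09). Of 11 cholangiocyte markers 7 passed the filter and 2 fell, and Spp1, Krt19 and Slc4a2 had 495 and 606, 39.7 and 29.5, and 29.8 and 25.8. Alb had a higher FPKM than each of the 15 genes of the stellate and myofibroblast list in both libraries, so the preparations labelled stromal also held hepatocyte RNA. Des, Acta2 and Tagln were named after their values were seen.

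Abcb11 ranged from -1.95 to -1.31 in log2 fold change and Slc27a5 from -1.59 to -1.39, taking the settings other than the hepatocyte scaling. Slc10a1 ranged from -0.96 to -0.69. Slco1b2 ranged from -0.79 to -0.57 and crossed the 1.5-fold threshold with equal FPKM sums. Abcb4 ranged from -0.82 to -0.46 and Abcc2 from -0.99 to -0.46, so these 2 also crossed the threshold between settings. The low Abcg5 and Abcg8 ranged from -1.67 to -0.48 and from -1.41 to -0.36, mainly with the pseudocount, and crossed it with a pseudocount of 1. Slco1a4 ranged from -0.08 to 0.21 and so had no settled sign.

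**Figure D4:**
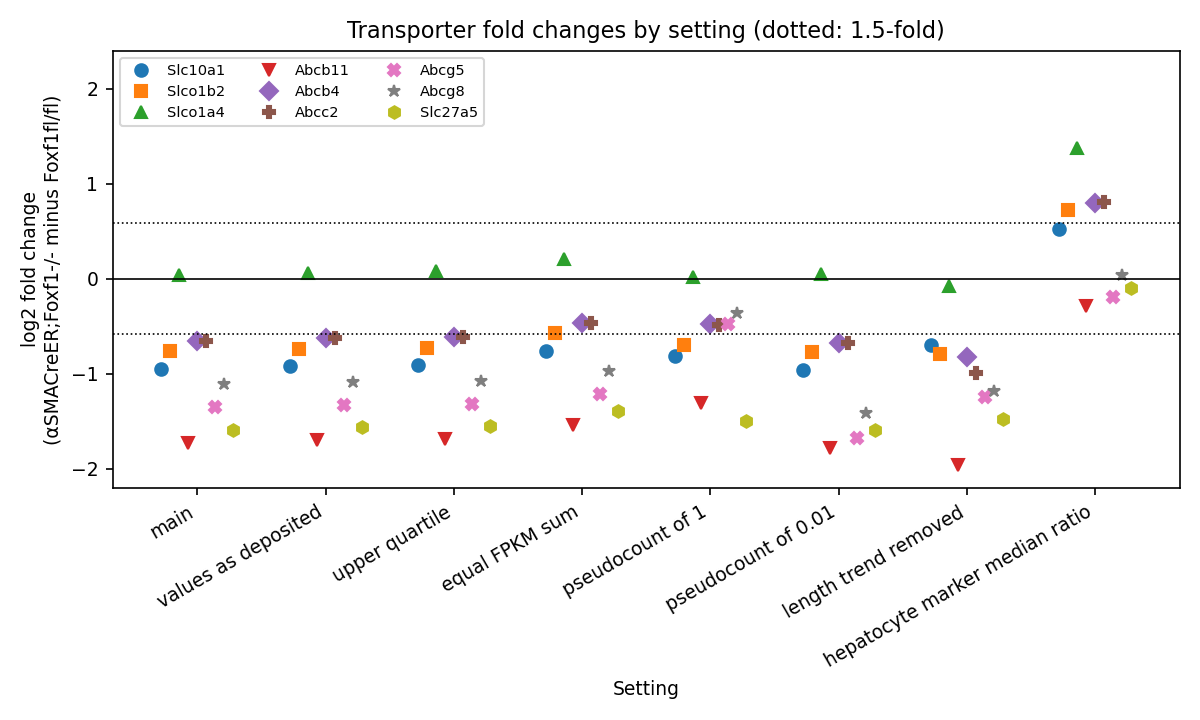
Log2 fold change of each transporter (αSMACreER;Foxf1-/- minus Foxf1fl/fl) under the setting used in the text and 7 others, with the 1.5-fold lines dotted. Abcb11 is the lowest in each setting but that with a pseudocount of 1, where Slc27a5 is lower, and the scaling to hepatocyte markers moves each member up, placing Slc10a1, Slco1b2, Abcb4, Abcc2 and Abcg8 above 0 with Slco1a4.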

How the data were processed

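Adherent liver cells of Foxf1fl/fl and αSMACreER;Foxf1-/- mice were sequenced as 1 pooled TruSeq library per genotype (Illumina, 75-base single-end reads). The authors aligned reads with TopHat and deposited Cufflinks FPKM per Ensembl gene, normalized to transcript length and mapped fragments. The submitters' processing notes name mm10, and the TopHat and Cufflinks versions and the annotation behind the FPKM are not given in the sources used here. The same notes name DESeq, which was used for the authors' separate fold changes and not here. Of 38320 entries, 36490 had a symbol in GENCODE M21 (GRCm38), and of repeated symbols the entry higher on average was taken.

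The αSMACreER;Foxf1-/- values were divided by 1.02, the median ratio over 11871 genes, and 0.1 was added before log2. No count test was used, because FPKM are not counts and each group had 1 library. The 1.5-fold threshold is that of the study. Mapped reads were estimated from the spacing of low values (200-base fragments assumed) as about 9820000 and 11290000, and since only 49.4% and 51.8% of these values came within 0.1 of whole reads, read numbers and the exact (Clopper-Pearson) 95% intervals are rough. Fold intervals are for FPKM ratios without the pseudocount.

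The members and all 13 lists were chosen with earlier results of these data known. Named genes were all members, the 3 with the highest mean FPKM in other lists, all genes past the filter in the synthesis, regulator, basolateral efflux and other canalicular lists, and the 5 nearest to the member with the highest level. Other genes were named after their values were seen. Of the uptake list, 1 gene is not reported here. Alternatives changed the pseudocount, scaling, filter, fold, repeated symbols and a correction for transcript length in 20 length groups. The procedure was tested on simulated counts drawn under the same length and fragment model, with planted changes well above the 1.5-fold threshold. That simulation does not check changes near the threshold or the depth estimate on the real values. The tools were Python 3.11.15, scipy 1.17.1, numpy 2.4.6, matplotlib 3.10.9 and pandas 2.3.3.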

Additional observations from a re-analysis of the deposited data

How the results depend on the processing

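No paired analysis was possible because there was a single library per genotype, and for the same reason no replicate could be left out. Scaling to the median ratio of the hepatocyte markers moved the median log2 fold change of all genes to 1.49: no transporter was then at least 1.5-fold lower (0 against 6), 3 were at least 1.5-fold higher, the median of the transporters turned to 0.53, and Abcb4, Abcc2, Slc10a1, Slco1b2 and Abcg8 had log2 fold changes of 0.80, 0.80, 0.53, 0.72 and 0.041. The bile acid synthesis list then had a median of 0.57, and 194 genes were lower and 11753 higher. Equal FPKM sums moved the median of all genes to 0.20 and left 3 transporters at least 1.5-fold lower, with 2690 genes higher and 1130 lower against 1624 and 1678, and a hepatocyte marker median of -1.30. Removal of the length trend gave a hepatocyte marker median of -1.30 as well. A mean FPKM of at least 5 left 3 transporters lower, 943 genes lower and 685 higher. A threshold of 2-fold left 2 transporters lower, 788 genes lower and 552 higher, and without a filter 3225 genes were lower and 3832 higher. A pseudocount of 1 left 4 transporters lower and a median of -0.48. Values as deposited, upper-quartile scaling, a pseudocount of 0.01, and summed entries left 6 transporters lower. Depth limits Abcg5, Abcg8 and Slco1a4, each with at most 20 estimated reads in a library.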

Other observations

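The genes whose levels in both libraries lay nearest to those of Slc27a5, by Euclidean distance on log2(FPKM + 0.1), were Pnlip, Ehhadh, Hgd, Serpinf2 and Igfbp2. Pnlip, which encodes pancreatic lipase, stood at 29.5 FPKM in the control and 9.32 FPKM in the knockout library, at a distance of 0.0717. Ehhadh, a peroxisomal enzyme of fatty acid oxidation, had 27.5 and 9.01 (0.0810), and Hgd, which degrades homogentisate from tyrosine, had 26.7 and 9.24 (0.0856). Serpinf2, which encodes the plasmin inhibitor α2-antiplasmin, had 29.0 and 10.1 (0.102), and Igfbp2, a secreted IGF-binding protein, had 26.4 and 9.12 (0.107). Likeness was measured over 2 libraries, so it matches a level and 1 difference only.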
